A study of Mus musculus with 6 samples.

Results

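Cell cycle and DNA replication genes were examined in group 3 innate lymphoid cells (ILC3s), lymphocytes without antigen receptors that reside in the gut wall. The members were the rows of the deposited count table whose symbol stood on a list of 33 such genes, out of 25075 rows in all. They were read as 9 S phase genes (Mcm2 to Mcm7, Pcna, Rrm2 and Tyms), 22 genes of the G2 phase and mitosis, called mitotic here, and Stmn1 and Hmgb2, which were given no phase. All 33 passed the filter on low counts that left 15261 genes for testing.

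The study compared ILC3s of the small intestine from mice on a b6 background in 2 groups of 3 samples. Each sample was 2000 cells sorted as Lin-CD90.2+KLRG1- and sequenced in bulk with Smart-seq2, which makes full-length cDNA from very little RNA. Mice of both groups carried floxed Batf alleles (Batf fl/fl). The control group lacked PLZF-Cre and the other group carried it, so that Batf, which encodes a transcription factor of the AP-1 family, is deleted only in cells that expressed, or descend from cells that expressed, the gene driving the Cre. Age, sex and efficiency of deletion were not given in the sources used here.

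Libraries held 8228513 to 17334207 counts. With TMM factors the targeted gene went against the labels: Batf was at 15.2, 15.3 and 19.0 CPM (counts relative to library size, the sizes having been corrected by TMM) in the libraries labelled control and at 38.3, 41.3 and 41.3 CPM in those labelled Batf-deficient. Its fitted log2 difference was 1.29 (SE 0.16, edgeR adjusted p = 1.70e-05), and -1.04 (edgeR adjusted p = 7.40e-05) when libraries were scaled on a panel of 18 genes of T cells and ILCs. Libraries are therefore named below by their label only. Every one of 12 ILC3 markers was present in both groups. They summed to between 1395 and 1566 CPM in the libraries labelled control and between 10549 and 11974 CPM in those labelled Batf-deficient. The size of that difference depended on the scaling, with a median log2 difference of 2.94 with TMM factors and 0.61 with panel scaling. Genes of CD3 and of the T cell receptor were present too, although the sort was lineage-negative, with 10 T cell markers summing to between 319 and 350 and between 2283 and 2288 CPM.

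A dividing cell first licenses its origins of replication with the MCM2-7 complex, the ring-shaped helicase that opens the double helix, and copies DNA in S phase with the help of the sliding clamp PCNA and of enzymes that supply deoxynucleotides. Genes of this step are switched on by E2F factors. A later wave, driven by the MuvB complex with B-MYB and FOXM1 through the cell cycle homology region (CHR) in their promoters, supplies cyclin B, CDK1, the mitotic kinases, kinetochore proteins and spindle motors. The anaphase-promoting complex then destroys the cyclins. In the small intestine the crypts hold many dividing cells, and resident ILCs divide slowly.

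The promoters of both waves are shown first because the S phase and mitotic genes differ in sequence features that no expression value was used to choose. RefSeq promoter windows (build GRCm38.p6, 250 bases before to 50 bases after the annotated start) were found for 27 of the 33 genes. Aurkb, Ccna2, Kif20a, Mcm4, Stmn1 and Tpx2 had none in the table. Each window was searched on both strands for the letters TTTGAA (the CHR), CCAAT (the CCAAT box) and TTTNNCGC (an E2F-type site), and matches were allowed to overlap each other. A member counted where any of its windows matched, whereas the share of all windows is per window. TTTGAA was found in 13 of 18 mitotic genes and in 1 of 8 S phase genes, Mcm2, against 17.9% of all 32851 windows. TTTNNCGC was found in 5 of 8 S phase genes (Mcm3, Mcm5, Mcm6, Mcm7 and Tyms) and in 1 of 18 mitotic genes, Cdk1, against 5.17% of all windows. CCAAT did not part them, with 16 of 18 mitotic and 7 of 8 S phase genes against 37.4% of all windows. Birc5 and Nusap1 held none of these letters, which says nothing about the factors. In Aurka, Bub1b, Cenpa, Cenpf, Kif23 and Plk1 TTTGAA lay only after the annotated start, as did TTTNNCGC in Mcm3 and Tyms. A match is a description of the sequence and not a measured binding site.

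The 160 bases before the annotated start are printed for 4 mitotic genes, with TTTGAA on either strand in capitals, and for 2 MCM genes, with TTTNNCGC on either strand in capitals. They are read 5′ to 3′ along the gene, from chr11:99024190-99024349 (minus strand) for Top2a, chr19:37376222-37376381 (plus) for Kif11, chr4:118437344-118437503 (minus) for Cdc20, chr7:135716380-135716539 (minus) for Mki67, chr8:75109349-75109508 (plus) for Mcm5 and chr1:128359706-128359865 (minus) for Mcm6.
Top2a: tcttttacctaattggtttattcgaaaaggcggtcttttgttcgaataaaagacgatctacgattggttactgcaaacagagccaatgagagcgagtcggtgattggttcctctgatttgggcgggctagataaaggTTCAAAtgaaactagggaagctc
Kif11: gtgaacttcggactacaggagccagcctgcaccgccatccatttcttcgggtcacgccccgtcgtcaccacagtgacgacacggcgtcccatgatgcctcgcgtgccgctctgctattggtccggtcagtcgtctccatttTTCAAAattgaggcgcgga
Cdc20: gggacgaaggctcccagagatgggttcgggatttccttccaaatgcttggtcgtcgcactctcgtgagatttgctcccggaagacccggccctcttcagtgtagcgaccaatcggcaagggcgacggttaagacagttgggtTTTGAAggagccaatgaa
Mki67: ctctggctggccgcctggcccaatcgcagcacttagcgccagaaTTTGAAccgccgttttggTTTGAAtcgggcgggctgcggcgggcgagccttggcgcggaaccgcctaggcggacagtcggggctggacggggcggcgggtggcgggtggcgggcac
Mcm5: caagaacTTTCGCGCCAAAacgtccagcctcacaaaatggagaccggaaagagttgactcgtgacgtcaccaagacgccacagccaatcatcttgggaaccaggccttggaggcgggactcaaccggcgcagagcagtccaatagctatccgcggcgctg
Mcm6: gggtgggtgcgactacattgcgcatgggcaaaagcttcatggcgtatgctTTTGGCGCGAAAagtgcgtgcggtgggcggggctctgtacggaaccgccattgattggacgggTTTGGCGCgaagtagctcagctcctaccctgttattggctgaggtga
The match nearest the start begins 23, 19 and 18 bases before it in Top2a, Kif11 and Cdc20. Mki67 has matches 116 and 98 bases before its start. The run of capitals in Mcm5 holds overlapping matches on both strands, and Mcm6 has such a run and a further match 47 bases before the start.

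Mitotic transcripts were less abundant in those labelled Batf-deficient, whereas the S phase members went different ways or did not pass the test. Of the 22 mitotic genes 21 fell, each at least 2-fold, and 15 of them at least 4-fold. The other mitotic gene was Cenpa, which passed as lower with library totals and panel scaling but not with TMM factors. Of the 9 S phase genes, Rrm2 and Tyms fell, and Mcm4 and Pcna were higher with TMM factors but lower on panel scaling. The other 5 did not pass the test with TMM factors. The test was edgeR's quasi-likelihood test with an adjusted p of 0.05 over all genes, by which 64.4% of all genes passed, 34.1% as lower and 30.2% as higher. Library values of the groups did not overlap for 24 members that were lower and 3 that were higher, against 36.5% and 34.6% of all genes, or 71.2% in either direction. At least 2-fold lower calls made up 26.9% of all genes and at least 4-fold lower calls 18.8%. In bulk RNA, fewer cells of a type and less RNA per cell cannot be told apart.

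**Figure D1:**
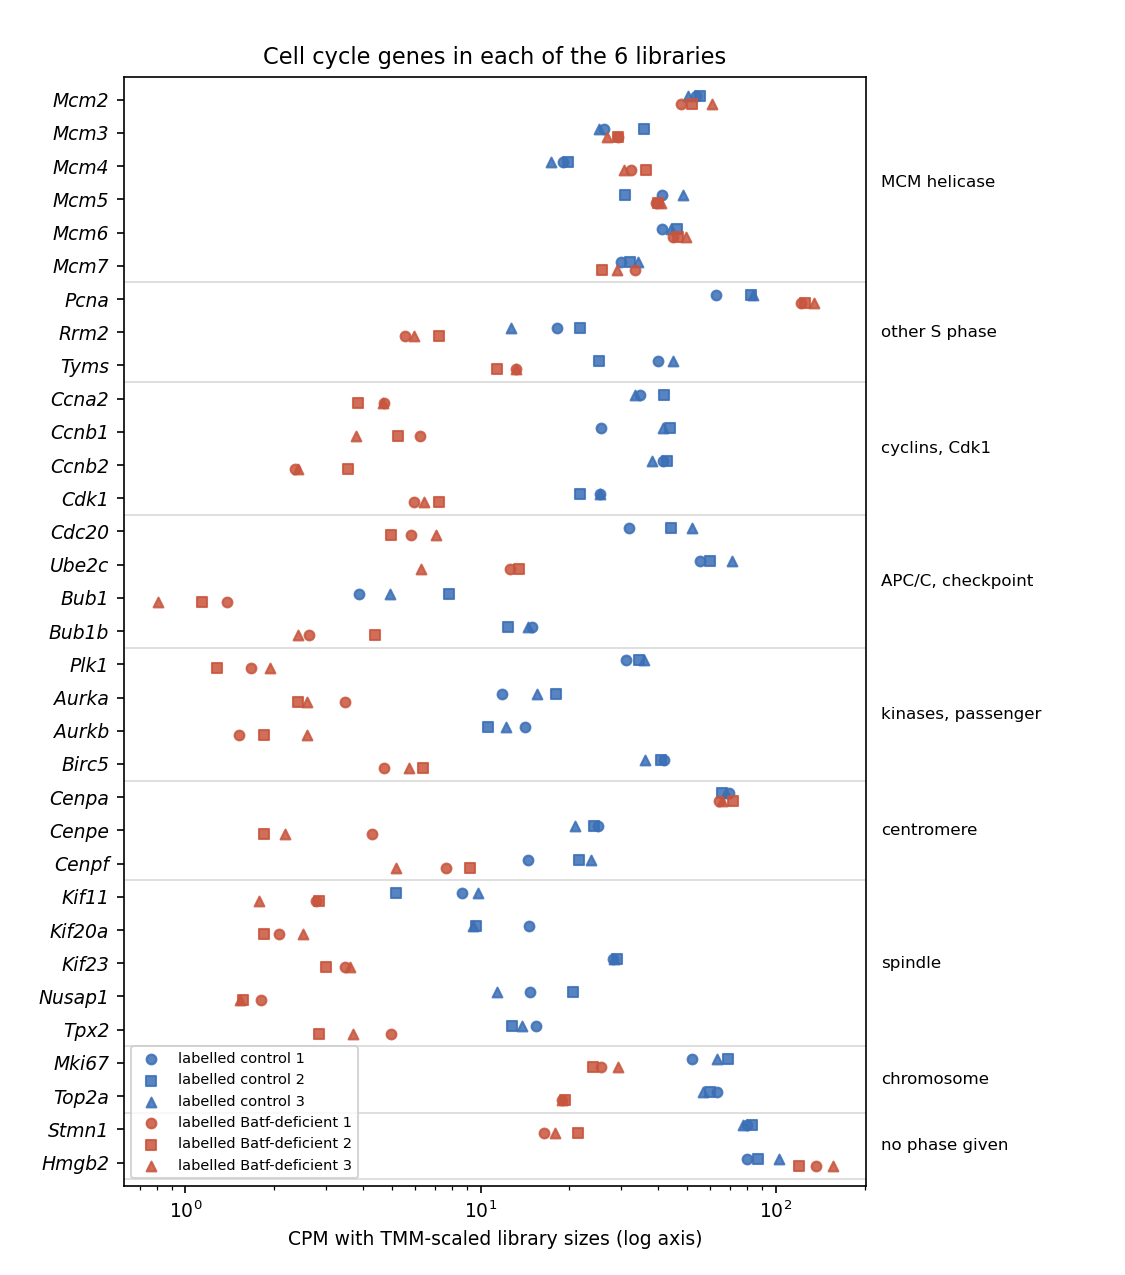
Level of each of the 33 genes in each library, as CPM with TMM-scaled sizes on a log axis; symbols mark the replicate, colours the labelled group, and genes are grouped by role. The groups are separate for every mitotic gene except Cenpa, while 5 of the 6 MCM genes overlap.

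The direction of some members depended on how libraries were scaled. Over all members, 3 were higher and 24 lower with TMM factors, 2 higher and 27 lower with library totals, and 33 of 33 lower with panel scaling. The same scalings gave 4612 higher and 5209 lower, 3048 and 6488, and 332 and 13100 among all 15261 genes tested. With library totals 62.5% of all genes were called, 20.0% as higher and 42.5% as lower, and with panel scaling 88.0%, 2.18% as higher and 85.8% as lower. The median log2 fold change of all genes moved from 0.02 to -0.36 and -2.32. Measured against that median, the S phase genes had a median of -0.02 under each of the 3 scalings, and the mitotic genes had -2.51. These values hardly vary by construction, since a scaling shifts all genes nearly alike. Fold changes below use TMM factors and give labelled Batf-deficient over labelled control.

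The MCM helicase is a ring of 6 different subunits, each with its own gene. Mcm5 was at 41.2, 30.9 and 48.3 CPM in the libraries labelled control and at 39.4, 39.9 and 40.7 CPM in those labelled Batf-deficient. The labelled Batf-deficient values lie inside the range of the labelled control. Its log2 fold change was -0.00 with an approximate 95% interval of -0.33 to 0.32 (edgeR adjusted p = 0.982). Mcm7, which had the lowest fold change of the 6, was at 30.0, 32.0 and 34.1 CPM and at 33.3, 25.7 and 29.1 CPM, again overlapping (fitted log2 ratio -0.13, interval -0.42 to 0.17). Mcm2, Mcm3 and Mcm6 had 0.01, -0.04 and 0.10, with intervals that lay between -0.37 and 0.34. Differences of less than about that size could not be detected in these genes with TMM factors. With library totals Mcm2 (-0.36, edgeR adjusted p = 0.0402) and Mcm7 (-0.51, edgeR adjusted p = 0.0125) passed as lower. With panel scaling all 6 subunits did, at a median of -2.33 beside -2.32 for all genes.

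Mcm4 was the exception among the subunits. It was at 18.9, 19.8 and 17.29 CPM in the libraries labelled control and at 32.4, 36.2 and 30.7 CPM in those labelled Batf-deficient, which do not overlap. The log2 fold change was 0.82 (SE 0.16, edgeR adjusted p = 0.000597) with TMM factors, 0.44 with library totals and -1.51 with panel scaling. The last value is still above the panel-scaled median of all genes. Summed over the 6 subunits, the level was 217 ± 5.13 CPM against 231 ± 5.46 CPM (SD, n = 3 each).

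Of the remaining S phase genes, Pcna encodes the clamp that tethers DNA polymerases and repair enzymes to DNA. It was at 62.6, 82.6 and 83.6 CPM in the libraries labelled control and at 121, 125 and 134 CPM in those labelled Batf-deficient. Those groups do not overlap, and the log2 fold change was 0.73 (SE 0.13, edgeR adjusted p = 0.000313) with TMM factors, but -1.60 with panel scaling. Reads of Pcna can be shared with a processed pseudogene that has its own row in the table.

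Tyms, thymidylate synthase, makes the thymidine nucleotide for DNA synthesis and went the other way. It was at 40.0, 25.2 and 44.8 CPM in the libraries labelled control and at 13.2, 11.4 and 13.2 CPM in those labelled Batf-deficient, without overlap (fitted log2 ratio -1.54, SE 0.22, edgeR adjusted p = 7.21e-05). Rrm2, the S phase subunit of ribonucleotide reductase, fell from 17.5 ± 4.52 to 6.25 ± 0.888 CPM (SD, n = 3 each; log2 fold change -1.49, edgeR adjusted p = 0.000393). These 2 nucleotide-supply genes moved apart from the helicase and the clamp, with panel-scaled values of -3.82 for Rrm2 and -3.86 for Tyms. A change of scaling shifts all genes nearly alike, so it cannot alter that gap.

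The cyclins and the kinase that drive entry into mitosis all fell. Ccnb1, cyclin B1, was at 25.5, 43.9 and 41.3 CPM in the libraries labelled control and at 6.24, 5.26 and 3.78 CPM in those labelled Batf-deficient (fitted log2 ratio -2.89, SE 0.27, edgeR adjusted p = 1.48e-06). Its sister Ccnb2 was at 41.5, 42.9 and 38.1 CPM and at 2.36, 3.55 and 2.41 CPM, a 14.9-fold difference (-3.89, SE 0.21, edgeR adjusted p = 1.39e-08). Ccnb2 changed most of the 4 genes, and neither cyclin had a labelled Batf-deficient library near the control range. The table also has a row for a Ccnb2 pseudogene, with which reads may be shared. Cdk1, the kinase that both cyclins activate, moved least of the 4, from 25.5, 21.7 and 25.3 CPM to 5.96, 7.25 and 6.44 CPM (-1.88, SE 0.20, edgeR adjusted p = 5.97e-06). Ccna2, cyclin A2, which acts in S phase and G2, had -3.04.

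Exit from mitosis is set by the anaphase-promoting complex and held back by the spindle checkpoint. Cdc20, an activator of the complex, was at 31.9, 44.2 and 52.1 CPM in the libraries labelled control and at 5.82, 4.97 and 7.08 CPM in those labelled Batf-deficient (fitted log2 ratio -2.82, SE 0.23, edgeR adjusted p = 4.72e-07). Bub1b, which encodes the checkpoint protein BubR1, went from 14.9, 12.4 and 14.4 CPM to 2.63, 4.405 and 2.41 CPM (-2.16, SE 0.31, edgeR adjusted p = 6.65e-05). In both genes the highest labelled Batf-deficient library was below the lowest labelled control library. Ube2c, the ubiquitin-conjugating enzyme of the complex, had -2.56, and the checkpoint kinase gene Bub1 had -2.35 with the largest error of all members (SE 0.47), on 8 to 10 counts in each labelled Batf-deficient library.

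Among the mitotic kinases and the chromosomal passenger complex, Plk1 showed the strongest decrease of all 33 members. Plk1, polo-like kinase 1 (chr7:122159439-122169873, plus strand, mm10), was at 31.1, 34.5 and 35.8 CPM in the libraries labelled control. In the labelled Batf-deficient libraries it was at 1.66, 1.28 and 1.93 CPM, which rest on 12, 9 and 24 counts. This 20.2-fold difference was -4.34 as a log2 ratio (SE 0.23, edgeR adjusted p = 1.11e-08). Aurka, the centrosomal Aurora kinase, moved least in this group, from 11.8, 18.03 and 15.5 CPM to 3.46, 2.42 and 2.58 CPM (-2.43, SE 0.30, edgeR adjusted p = 1.78e-05). Aurkb and Birc5 (survivin), the kinase and a targeting subunit of the passenger complex, had -2.60 and -2.81.

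The 3 centromere genes differed from each other. Cenpa, the histone H3 variant that marks the centromere, was at 69.2, 65.9 and 67.8 CPM in the libraries labelled control and at 64.3, 71.6 and 65.9 CPM in those labelled Batf-deficient. The groups overlap with TMM factors, and the log2 fold change of -0.01 had an interval of -0.22 to 0.20 (edgeR adjusted p = 0.952). The change of every other mitotic gene with TMM factors lay outside that interval. Cenpa passed as lower with library totals (-0.39, edgeR adjusted p = 0.0116) and with panel scaling (-2.34, edgeR adjusted p = 3.44e-10). Both values are next to the median of all genes under the same scaling, -0.36 and -2.32. Cenpe, the kinetochore motor, was at 24.9, 24.2 and 20.9 CPM and at 4.30, 1.85 and 2.17 CPM, without overlap (-3.09, SE 0.31, edgeR adjusted p = 2.80e-06). Cenpf, a large kinetochore protein, had -1.46. Cenpa made up 10.1% ± 0.706 of the summed mitotic CPM in the libraries labelled control and 35.8% ± 1.52 in those labelled Batf-deficient (SD, n = 3 each).

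All 5 members that are spindle motors or assembly factors fell. Nusap1, which bundles spindle microtubules, was at 14.7, 20.6 and 11.4 CPM in the libraries labelled control and at 1.80, 1.56 and 1.53 CPM in those labelled Batf-deficient (fitted log2 ratio -3.25, SE 0.33, edgeR adjusted p = 3.61e-06). Kif11, the motor that pushes spindle poles apart, went from 8.67, 5.15 and 9.81 CPM to 2.77, 2.84 and 1.77 CPM (-1.69, SE 0.39, edgeR adjusted p = 0.00231). It is the smallest change of the 5 genes and the highest p among the members that passed. Kif23 and Kif20a, motors of cytokinesis, had -3.07 and -2.37, and Tpx2, which activates Aurora A on the spindle, had -1.86.

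Mki67 and Top2a, widely used as marks of proliferating cells, changed less than most of the mitotic genes. Mki67, which coats mitotic chromosomes, was at 52.0, 69.0 and 63.0 CPM in the libraries labelled control and at 25.5, 24.01 and 29.2 CPM in those labelled Batf-deficient (fitted log2 ratio -1.22, SE 0.15, edgeR adjusted p = 1.73e-05). Top2a, the topoisomerase that untangles sister chromatids, was at 63.1, 60.1 and 56.8 CPM and at 18.8, 19.3 and 18.9 CPM (-1.66, SE 0.13, edgeR adjusted p = 3.57e-07). Neither pair of groups overlaps. Together they made up 18.03% ± 0.522 and 24.1% ± 2.18 of the summed mitotic CPM (SD, n = 3 each, not tested).

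The members without a phase went in opposite directions with TMM factors. Stmn1, stathmin, which destabilises microtubules, was at 80.04, 83.2 and 77.2 CPM in the libraries labelled control and at 16.4, 21.3 and 17.9 CPM in those labelled Batf-deficient (fitted log2 ratio -2.12, SE 0.14, edgeR adjusted p = 6.30e-08). Hmgb2, a chromatin protein that bends DNA, was at 79.8, 87.1 and 102.8 CPM and at 136, 120.1 and 156 CPM. The groups are apart for both genes. Hmgb2 differed by 0.61 on the log2 scale (SE 0.13, edgeR adjusted p = 0.00143), which was 0.24 and no longer passed with library totals (edgeR adjusted p = 0.147) and was -1.72 with panel scaling.

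**Figure D2:**
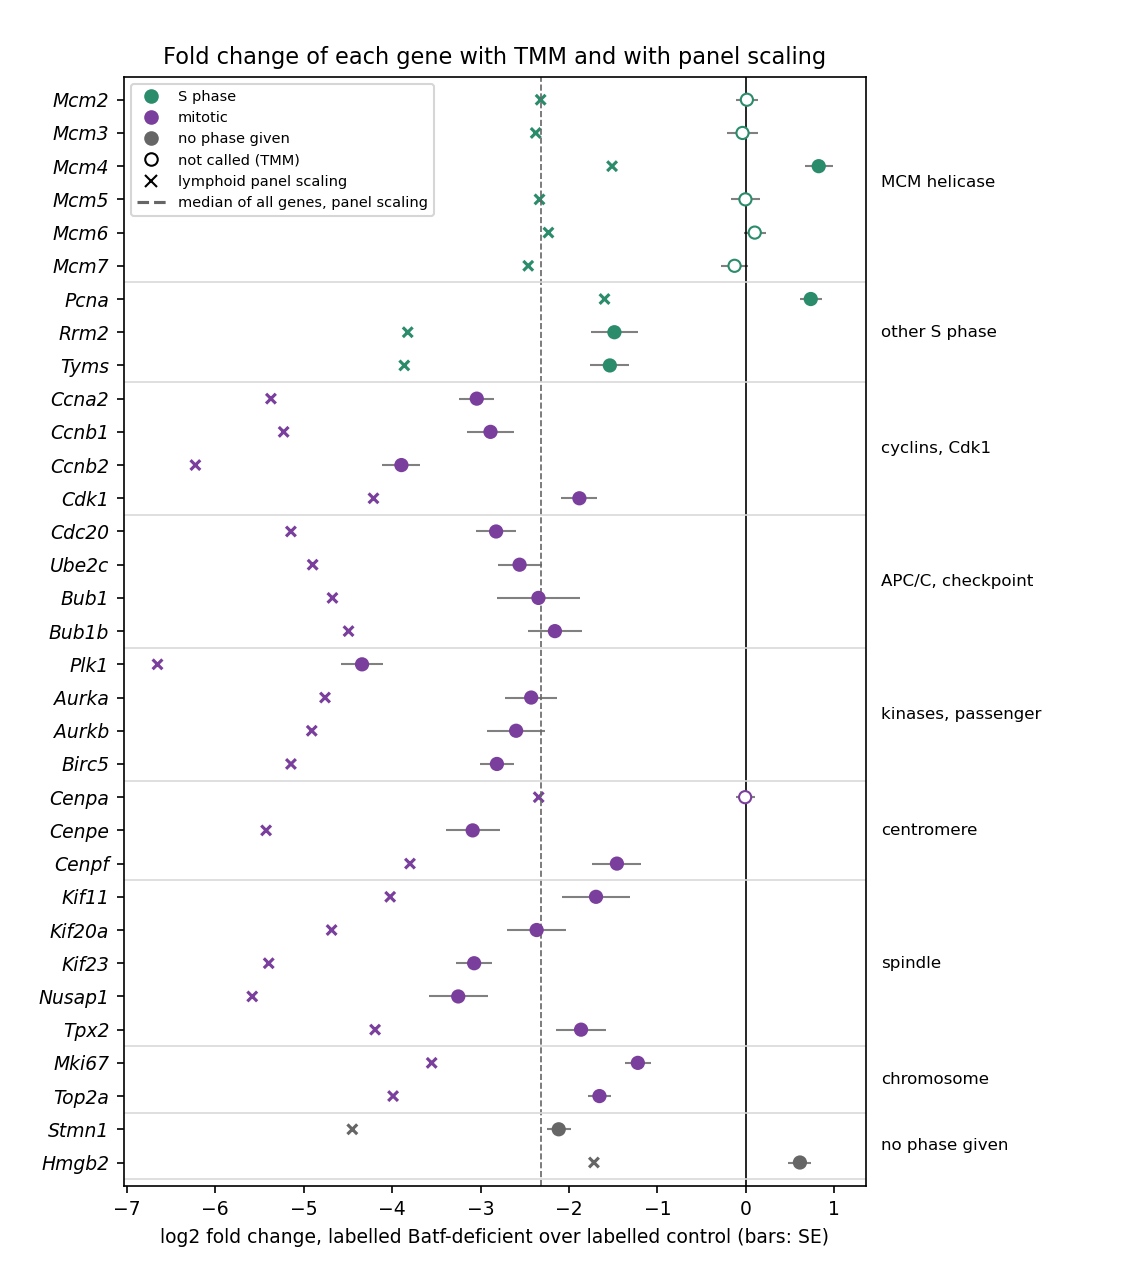
Log2 fold change of each gene, labelled Batf-deficient over labelled control, with TMM factors (circles, bars are SE; open circles did not pass an adjusted p of 0.05) and with panel scaling (crosses). The dashed line is the median of all genes with panel scaling, -2.32, under which every member is negative; with TMM factors Mcm4, Pcna and Hmgb2 lie above 0.

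Levels of different genes were compared per length, as CPM per kilobase of annotated exon (GENCODE M21). In the labelled control libraries Stmn1 led with 41.7, followed by Pcna with 31.8, Hmgb2 with 29.9, Ccnb2 with 26.7, Ube2c with 23.9 and Cdc20 with 22.9, so that mitotic genes stood among the highest. Kif11 was lowest at 1.06. In the labelled Batf-deficient libraries Pcna led with 52.9, then Hmgb2 with 45.7, Cenpa with 11.5, Mcm6 with 10.1 and Mcm5 with 10.02, and Bub1 was lowest at 0.255. Ccnb2 moved from rank 4 to rank 17 of the 33 and Plk1 from rank 7 to rank 24. Mcm5 and Mcm6, neighbours in the second order, overlapped between libraries of that group.

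The S phase genes were then set against the mitotic genes within each library, since a ratio within a library does not depend on its scaling. Summed S phase levels were 332, 350 and 361 CPM in the libraries labelled control and 367, 374 and 391 CPM in those labelled Batf-deficient. Those sums are close, and their order turns with library totals, where they were 0.0388% to 0.0401% and 0.0314% to 0.0356% of all counts. Summed mitotic levels were 637, 696 and 685 CPM and 189, 194 and 181 CPM, a 3.58-fold difference of the means. Without Cenpa, a choice made after its values were seen, the mitotic difference was 5.01-fold.

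As a ratio of these sums, S phase over mitotic reads stood at 0.521, 0.502 and 0.527 in the libraries labelled control and at 1.94, 1.93 and 2.16 in those labelled Batf-deficient. The mean log2 level of the S phase genes minus that of the mitotic genes was 0.49 ± 0.03 and 2.61 ± 0.09 (SD, n = 3 each), a difference of 2.12 that is many times the spread between replicates. This value is a score over chosen genes and is given without a test. The contrast is plain in a pair of single genes: Plk1 had 0.497, 0.418 and 0.429 reads for each read of Pcna in the libraries labelled control and 0.0137, 0.0102 and 0.0144 in those labelled Batf-deficient.

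**Figure D3:**
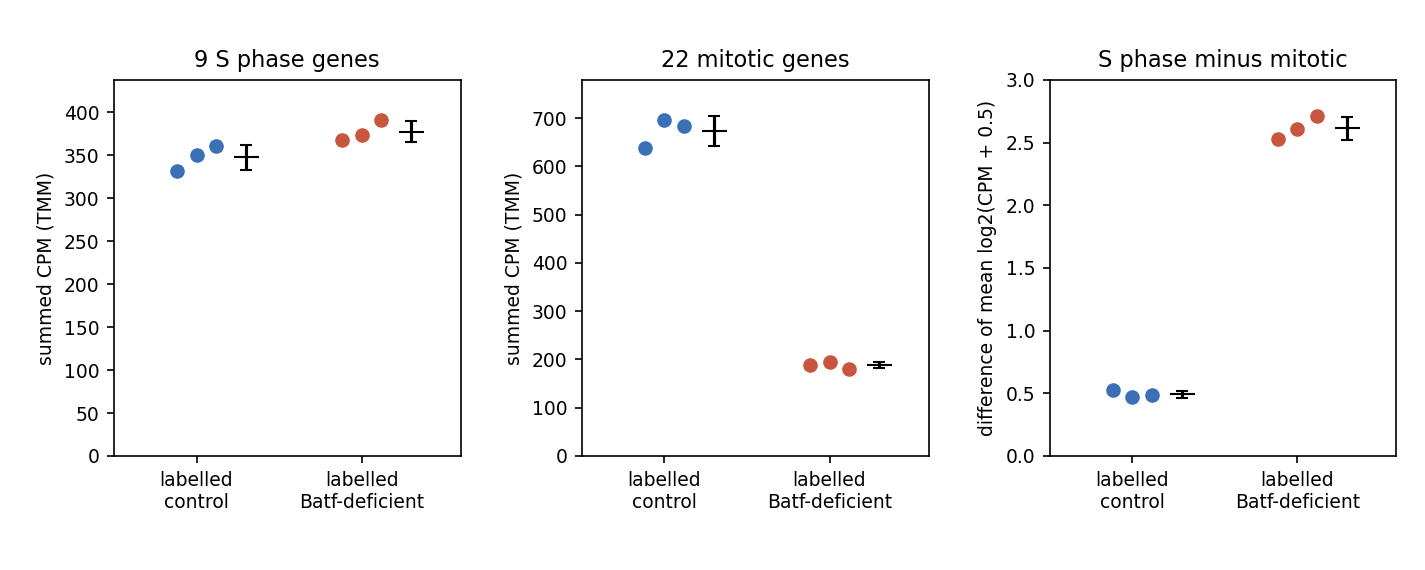
Summed CPM of the 9 S phase genes (left) and of the 22 mitotic genes (middle), and the S phase minus mitotic difference of mean log2(CPM + 0.5) (right), one point per library with mean and SD beside them. Mitotic sums lie between 637 and 696 CPM and between 181 and 194 CPM, while the S phase sums, whose order depends on the scaling, lie between 332 and 391 CPM.

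Other genes of the same pathways were taken from lists drawn up with earlier results of these data known. Their counts stand beside 34.1% lower and 30.2% higher over all genes with TMM factors. With library totals these shares were 42.5% and 20.0%, and with panel scaling 85.8% and 2.18%. Of 48 further mitotic genes tested, 37 were lower and 4 higher with TMM factors, with a median log2 fold change of -1.61 against 0.02 for all genes. Cdca3, Nek2 and Cdca8, a regulator of mitotic entry, a centrosomal kinase and the passenger subunit borealin, had -3.64, -3.56 and -2.83. Smc4, a condensin subunit, Pttg1 (securin) and the checkpoint gene Bub3 were higher at 0.57, 0.62 and 0.44 with TMM factors, and lower at -1.77, -1.71 and -1.89 with panel scaling. With library totals 40 of the 48 were lower, and with panel scaling 48.

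Of 40 further replication genes 13 were lower and 7 higher, with a median of -0.49. The share lower was close to the 34.1% over all genes, and the share higher was below the 30.2% over all genes. Within that list Gins2, a subunit of the active helicase, fell from 43.5 ± 1.25 to 7.27 ± 2.31 CPM (SD, n = 3 each; log2 fold change -2.61, edgeR adjusted p = 8.89e-07). Tk1, thymidine kinase, which salvages thymidine for DNA synthesis, had -1.28, the same direction as Tyms and Rrm2. Not all genes of nucleotide supply went that way. Rrm1, of ribonucleotide reductase like Rrm2, and Dut had 0.19 and 0.29 and did not pass (edgeR adjusted p = 0.310 and 0.282). Rpa1, which coats single-stranded DNA, Slbp, the histone mRNA binding protein, and Pola1, a subunit of DNA polymerase alpha, were higher at 1.22, 0.72 and 1.56 with TMM factors but at -1.12, -1.62 and -0.77 with panel scaling. Library totals gave 24 lower and 3 higher, and panel scaling 39 lower.

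**Figure D4:**
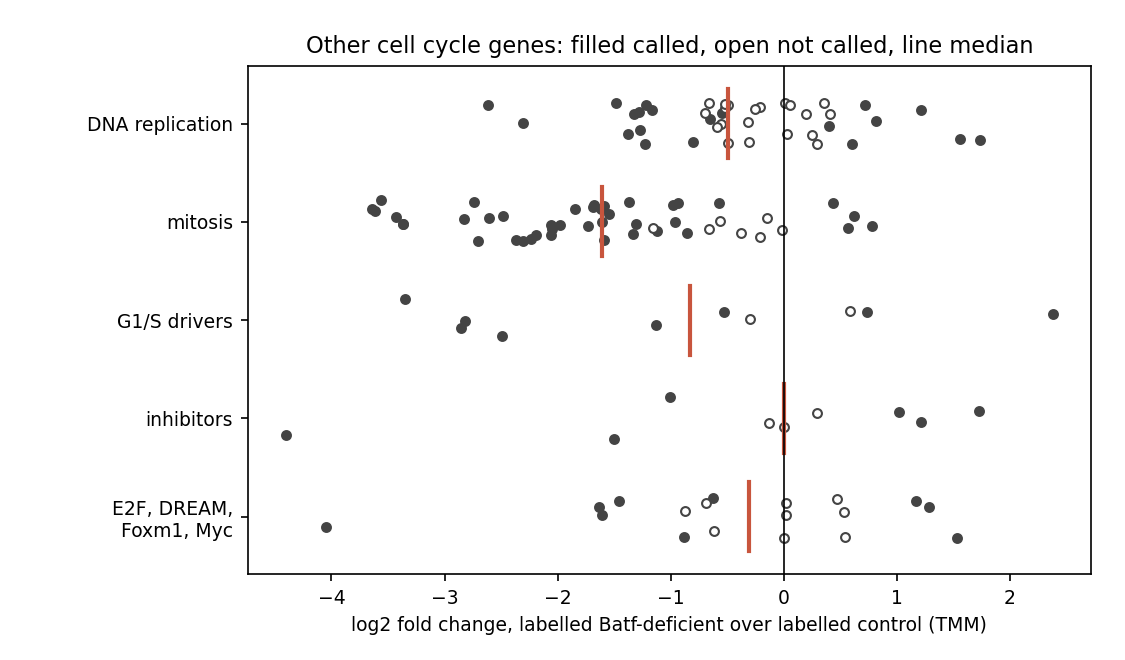
Log2 fold change with TMM factors for further cell cycle genes in 5 lists; each point is a gene, filled where it passed an adjusted p of 0.05, and the red line is the list's median. The mitosis list has the lowest median, -1.61, and the inhibitors have a median of -0.00; with panel scaling nearly all points move below 0.

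Upstream of both waves, the D-type cyclins differed. Ccnd1, cyclin D1, was at 53.0 ± 11.6 CPM in the libraries labelled control and 5.13 ± 0.584 CPM in those labelled Batf-deficient, a 10.2-fold decrease. Ccnd3 was at 85.5 ± 4.31 and 445 ± 24.1 CPM (SD, n = 3 each), a difference of 2.38 on the log2 scale (SE 0.10, edgeR adjusted p = 9.93e-10) with TMM factors and of 0.05 with panel scaling. Ccnd2, the most read of the 3, had 0.74 and -1.60. Among 10 drivers of the G1 to S step, 6 were lower and 2 higher with TMM factors, Cdc25a, a phosphatase that activates CDKs, having -2.85 and the kinase gene Cdk6 -1.13. Library totals gave 7 lower and 2 higher, and panel scaling 9 lower.

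The list of inhibitors held genes of CDK inhibitors and also Rb1, Wee1 and Pkmyt1, which are not CDK inhibitors of that family. Of its 9 genes tested, 3 were higher and 3 lower, shares close to the 30.2% and 34.1% over all genes. Cdkn2c, Cdkn1b and Cdkn2d, which encode p18, p27 and p19, were higher at 1.73, 1.21 and 1.0204 with TMM factors but lower at -0.60, -1.13 and -1.31 with panel scaling. Cdkn2b, which encodes p15, fell by 4.403, Cdkn1c, for p57, by 1.498 and Pkmyt1, a kinase that holds CDK1 inactive, by 1.01 on the log2 scale. Library totals gave 4 lower and 3 higher, and panel scaling 8 lower.

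Of 18 transcriptional regulators 6 were lower and 3 higher, beside 34.1% and 30.2% over all genes, so that the share lower was close to that of all genes. E2f2, an activator of S phase genes, fell from 24.6 ± 3.28 to 1.45 ± 0.306 CPM (SD, n = 3 each; -4.04, SE 0.27), and the repressor E2f8 and the E2F partner Tfdp1 had -1.64 and -1.61. Rbl2 (p130), which represses cell cycle genes in resting cells, had 1.53, and the MuvB subunits Lin52 and Lin9 had 1.29 and 1.17 with TMM factors. With panel scaling Rbl2, Lin52 and Lin9 had -0.80, -1.06 and -1.17. Foxm1 and Myc, named after their values were seen, had -1.46 (edgeR adjusted p = 0.0206) and 0.02 (edgeR adjusted p = 0.893). Library totals gave 8 lower and 1 higher, and panel scaling 18 lower.

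Markers of several other cell types were lower alongside the mitotic genes, whereas 8 of 10 T cell markers were higher with TMM factors (6 on panel scaling). The T cell list was not uniform, with 1 marker lower with TMM factors and 3 on panel scaling. The 1 lower with TMM factors was Cd8a, at -4.15 (edgeR adjusted p = 8.76e-05), on 1 to 5 counts per library labelled Batf-deficient. Of 4 erythroid markers tested, 2 were higher and 2 lower with TMM factors, and all 4 were lower on panel scaling (TMM sums over 6 of 1387 to 1493 against 1602 to 1650.5 CPM). Of 9 crypt genes tested, 7 were lower, and the 10 on the list summed to between 388 and 427 CPM in the libraries labelled control and between 84.8 and 90.6 CPM in those labelled Batf-deficient, a 4.55-fold difference beside the 3.58-fold difference of the mitotic sum. Olfm4, a crypt stem cell gene, was at 128 and 8.93 CPM on average, while Axin2 and Rnf43 were higher at 1.35 and 1.32 with TMM factors. These 2 genes averaged 26.5 and 37.2 CPM in those labelled Batf-deficient, so the 4.55-fold difference of the crypt sum depends largely on them. No gene of the list was higher with panel scaling. Of 12 epithelial markers 11 were lower (sums of 11373 to 12635 against 325 to 358 CPM). Among 8 plasma cell markers 5 were lower and 2 higher (8768 to 9073 against 1131 to 1157 CPM), and of 7 B cell markers tested 5 were lower (sums over 9 of 85.6 to 118 against 42.3 to 51.8 CPM). All 8 myeloid markers were lower (844 to 970 against 64.8 to 70.4 CPM), as were 8 of 9 stromal and endothelial markers (1046 to 1090 against 111 to 131 CPM).

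The 12 acinar genes of the pancreas took 8.84% to 9.11% of the labelled control counts and summed to between 1.66 and 2.70 CPM in those labelled Batf-deficient, where Try4, Pnliprp1 and Ptf1a had no count. For each CPM of the lymphoid panel there were 0.703 to 0.777 CPM of mitotic genes in the libraries labelled control and 0.0400 to 0.0414 CPM in those labelled Batf-deficient. For each CPM of crypt genes there were 1.49 to 1.79 and 2.00 to 2.29 CPM of mitotic genes. The second range rests largely on Axin2 and Rnf43, which made up most of the crypt sum in those labelled Batf-deficient. The part of these other cell types in the decrease of the mitotic genes was not tested.

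**Figure D5:**
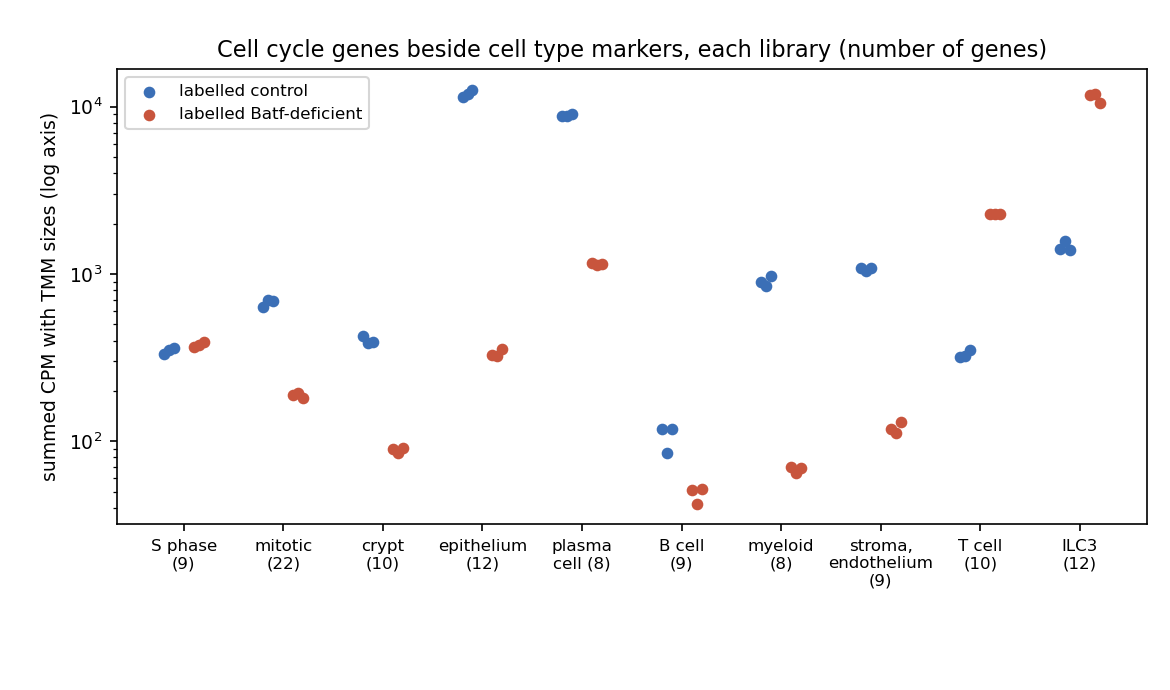
Summed CPM (TMM, log axis) of S phase and mitotic genes beside marker lists of other cell types, 3 points per labelled group. Mitotic, crypt, epithelial, plasma, B cell, myeloid and stromal sums are lower in those labelled Batf-deficient, while T cell and ILC3 sums are higher with TMM factors.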

How the data were processed

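The authors deposited raw counts per gene symbol, whole numbers in 1 table with a column for each of the 6 samples. Per the submitters' processing notes, reads were placed on mm10. No aligner, counter, annotation or strand setting was given in the sources used here. Groups were taken from sample titles. The 33 members and all lists were chosen with earlier results of these data known.

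Counts were fitted in R 4.3.3 with edgeR 4.0.16 (filterByExpr with a minimum count of 10, TMM, robust quasi-likelihood test, two-sided, with a term for group alone). Benjamini-Hochberg adjustment ran over all 15261 genes tested. Intervals are the estimate ± 1.96 SE. The method was tested on simulated data in which few genes changed, in both directions. That test could not check the scaling for these data, where 64.4% of genes passed. Alternatives were library totals, panel scaling, DESeq2 1.42.0, limma 3.58.1 voom, no filter, leaving out each library, merging replicates 1 and 2 labelled Batf-deficient, and a replicate block. Members named with values in every library were 9 chosen by name and the extremes of each role group; from each further list, up to 3 genes in each direction with the lowest p and a mean log2 CPM of at least 1. One gene that this rule names is not reported here. Gene positions and exon lengths are from GENCODE M21, on the same build.

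A count of 3 corresponded to 0.156 to 0.426 CPM. That floor reflects the number of reads only, and reads are not independent molecules. The SE and p-values of the fit also include the spread between libraries of a group. Exons of 9 members overlap exons of another gene, which for Ccna2, Cdc20, Kif20a, Mcm7 and Nusap1 is a row of the table, and without strand such reads cannot be told apart. The closest pair was replicates 1 and 2 labelled Batf-deficient, at a chi-square per gene of 2.36 against 14.8 to 24.2 for the other pairs within a group. They were kept as separate samples because the series calls them biological replicates; where they are not from separate animals, p-values measure a spread that may be technical.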

Additional observations from a re-analysis of the deposited data

How the results depend on the processing

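The 21 mitotic and 24 member calls of lower abundance kept their number with DESeq2, limma voom, no filter, each library left out, the merged pair and the replicate block. Scaling was the choice that mattered. Library totals gave 3048 higher genes over the whole table and 4 lower S phase members. Panel scaling gave 332 higher and 13100 lower genes, 9 lower S phase members, and 0 higher members and 0 higher S phase members, where every fitted change of a member by edgeR was negative; DESeq2 and limma voom, run with their own scaling, gave 3 higher members each. Panel scaling reversed Batf to -1.04, Mcm4 to -1.51, Pcna to -1.60, Hmgb2 to -1.72, Mcm2 to -2.32 and Mcm6 to -2.23, and library totals reversed Mcm2 to -0.36 and Mcm6 to -0.28. By construction these scalings shift all genes alike.

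Among members that had not passed, signs near 0 turned. Mcm2 was at -0.029 with DESeq2 and -0.016 without the filter, and Mcm5 was at 0.023 with limma voom and 0.014 with the replicate block. With 1 library left out Mcm2 ran from -0.18 to 0.049, Mcm3 from -0.13 to 0.15, Mcm5 from -0.16 to 0.16 and Mcm6 from -0.022 to 0.14.

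The S phase minus mitotic difference of 2.12 was 2.24 and 1.80 with pseudocounts of 0.1 and 2, 1.96 from summed CPM, 1.99 with Stmn1 and Hmgb2 as mitotic, 2.21 without Mki67 and Top2a, 2.49 without Rrm2 and Tyms, and 2.07 to 2.17 with a library left out. Replicate numbers shared by the groups did not pair the samples (correlations of deviations between same-numbered libraries of 0.0045, 0.021 and 0.030); the replicate block gave 9694 genes called against 9821 and changed no call of a member. Depth limits Bub1, Plk1, Aurkb and Nusap1 most, at 8 to 32 counts per library labelled Batf-deficient.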
